A study of Mus musculus with 36 samples.

Results

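The comparison set hearts of KO-labelled mice collected at ZT2, early in the light phase, against hearts of KO-labelled mice collected at ZT14, early in the dark phase (ZT, zeitgeber time, counts hours from lights on). The members were the libraries titled KO at ZT2 (n = 3) and KO at ZT14 (n = 3), which makes 6 of the 36 libraries recorded for the series and 6 of the 33 with expression values used here. KO stands for Reverb fl/fl /MHC+ mice, which carry floxed Rev-erb alleles together with an MHC transgene. WT stands for Reverb fl/fl mice, which carry the same floxed alleles without the transgene, and WT hearts at ZT2 (n = 3) and ZT14 (n = 3) are given beside the KO hearts only to show where they differ. All mice were C57BL/6, 8 weeks old, fed normal chow and housed under 12 h of light and 12 h of dark. In this field MHC usually denotes a promoter of cardiac myosin heavy chain placed before Cre recombinase, which then acts in heart muscle cells, so that other cells of the heart keep the floxed genes. The labels do not spell this out, and there is no group with the transgene alone. No label says whether the 3 libraries of a group came from 3 animals, so the p-values measure the spread between these libraries, which may be technical.

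The circadian clock is a transcriptional loop. BMAL1 (encoded by Arntl) and CLOCK bind E-boxes and switch on the Per, Cry, Nr1d1, Nr1d2 and Dbp genes, whose products feed back on the loop. The Rev-erb receptors (REV-ERBα from Nr1d1, REV-ERBβ from Nr1d2) repress Arntl, Clock, Npas2, Nfil3 and Cry1 through ROR elements, and DBP, TEF and HLF act through D-boxes that NFIL3 blocks. In the heart, genes can also follow the time of day through feeding, hormones, body temperature and activity, which do not need the clock of the muscle cell itself. Mice are active and eat mostly in the dark, so ZT2 lies just after and ZT14 just within their active phase.

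Expression was measured by RNA sequencing of whole hearts and is given as FPKM, fragments scaled by transcript length and by the mapped reads of the library, so that levels can also be set beside each other between genes. Low FPKM values fell on steps that put the depth near 15.4 to 16.1 M reads (M, mega) in each of the 6 libraries, against 14.1 to 14.9 M reads in the 6 WT libraries at these times. Pearson correlations of log2 values across genes were 0.9943 to 0.9963 between libraries of one time and 0.9893 to 0.9908 between times. The first principal component of the 6 libraries held 53.01% of the variance and separated ZT2 from ZT14. Ventricular muscle markers were high at both times, with a summed level of 56854 to 59427 FPKM at ZT2 and 57515 to 59423 FPKM at ZT14. Of 6 atrial markers, Bmp10 was at 0 in all 6 libraries, Sln and Myl7 reached at most 0.14 and 0.36 FPKM and Dkk3 at most 1 FPKM, while Myl4 stood at 2.26 to 4.18 FPKM at ZT2 and 3.31 to 4.25 FPKM at ZT14. Stard10 stood at 14.6 to 17.5 FPKM at ZT2 and 12.4 to 14.7 FPKM at ZT14 and was called higher at ZT2 (0.27, adjusted p = 0.00842 from limma).

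The Rev-erb genes were checked first, and the labels do not say whether Nr1d1, Nr1d2 or both are floxed. Nr1d1 (NCBI Gene 217166, chromosome 11, positions 98767932 to 98775377, mm10) stood at 233, 210 and 201 FPKM in the KO-labelled hearts at ZT2 and at 219, 198 and 200 FPKM in those at ZT14. In WT hearts it stood at 39.8, 38.3 and 34.3 FPKM at ZT2 and at 28.03, 17.3 and 16.9 FPKM at ZT14. Nr1d1 reads were thus more abundant in KO-labelled hearts than in WT hearts at both times, which goes against a loss of the gene's RNA, and the label KO is used here as given. FPKM over the whole gene cannot show whether a floxed part was removed from those transcripts. Between ZT2 and ZT14 the KO-labelled values overlapped, with a log2 difference of 0.06 (95% CI -0.27 to 0.39, adjusted p = 0.837). Here and below a log2 difference is ZT2 minus ZT14 on the log2(FPKM + 1) scale, which understates the change of low genes. Adjusted p comes from limma with Benjamini-Hochberg adjustment over 11790 genes, and a gene is called when it is under 0.05. Nr1d2 (NCBI Gene 353187, chromosome 14) stood at 26.6, 29.5 and 26.1 FPKM at ZT2 and at 28.2, 28.2 and 31.5 FPKM at ZT14, which also overlapped (log2 difference -0.09, 95% CI -0.26 to 0.08, adjusted p = 0.474). Thra, which encodes thyroid hormone receptor alpha and overlaps Nr1d1 on the opposite strand, differed by 0.02 on the log2 scale (adjusted p = 0.834). No stranded protocol is stated, so reads of the overlap cannot be assigned to one of the 2 genes.

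Between ZT2 and ZT14, 2049 of the 11790 genes tested (17.4%) were called in KO-labelled hearts, 841 of them higher at ZT2 (7.13%) and 1208 lower at ZT2 (10.2%). Most of these differences were modest: 49 genes (0.416%) also differed by at least 1 on the log2 scale, 31 higher (0.263%) and 18 lower at ZT2 (0.153%). The balance of directions depended on the scaling, since median-ratio scaling of the same values gave 1106 genes higher and 1038 lower. Without KO ZT2 replicate 2 the count was 1271. The median log2 difference over all genes tested was -0.01. Whole hearts were measured, so a lower value can mean less RNA per cell or fewer cells of the type that expresses the gene, and these cannot be told apart.

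Of the clock genes repressed through ROR elements, Arntl itself was nearly flat. Arntl (NCBI Gene 11865, chromosome 7, positions 113178471 to 113314126, mm10), the gene for BMAL1, has a pair of these elements at its start in the RefSeq GRCm38.p6 reference. They are shown because Rev-erb and ROR receptors are known to act through them, with the ROR element in capitals (AAAGTAGGT, then any base, then A).
Arntl site before the start, chr7:113207495-113207517, plus strand: ggtcggAAAGTAGGTTAgtggtg
Arntl site after the start, chr7:113207531-113207553, plus strand: aggcagAAAGTAGGTCAgggacg
The element lies 10 bases before the annotated start in the first line and 26 bases after it in the second line. On both strands of the window from 250 bases before to 50 bases after the start, it occurred in 0.0703% of 27025 genes, and among the 5 genes of this group with a window it occurred in Arntl.

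Arntl stood at 29.3, 28.03 and 27.9 FPKM in KO-labelled hearts at ZT2 and at 23.7, 26.5 and 27.4 FPKM at ZT14. Every ZT2 library was above every ZT14 library, but the log2 difference of 0.13 (95% CI -0.16 to 0.42) did not pass the test (adjusted p = 0.568). In WT hearts Arntl stood at 11.2, 13.8 and 13.5 FPKM at ZT2 and at 0.73, 0.86 and 1.33 FPKM at ZT14, a log2 difference of 2.82. The difference between the genotypes in the ZT2 against ZT14 contrast, KO minus WT, was -2.68 ± 0.20 (SE, adjusted p = 6.15e-10). All KO-labelled Arntl values lay above all WT values at these 2 times.

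Nfil3, Clock and Npas2 were likewise less separated by time in KO-labelled than in WT hearts. Nfil3, the repressor that competes for D-boxes, stood at 50.8, 43.4 and 47.2 FPKM at ZT2 and at 39.8, 37.1 and 38.0 FPKM at ZT14 in KO-labelled hearts. This rise of 0.29 ± 0.10 (SE, adjusted p = 0.0345) was small beside the 1.92 of WT hearts, with a difference between genotypes of -1.63 (adjusted p = 5.62e-09). The Nfil3 call in KO-labelled hearts was lost without ZT2 replicate 1 (adjusted p = 0.137), ZT2 replicate 3 (0.0772), ZT14 replicate 2 (0.11) or ZT14 replicate 3 (0.0824). Clock, the partner of BMAL1, rose by 0.26 ± 0.07 (adjusted p = 0.0112) in KO-labelled hearts and differed by 0.84 in WT hearts (difference between genotypes -0.59, adjusted p = 0.00129). Its KO call was lost without ZT2 replicate 2 (adjusted p = 0.0515) or ZT14 replicate 1 (adjusted p = 0.109). Npas2, a paralog of Clock, overlapped between times in KO-labelled hearts at 4.49 to 6.44 FPKM at ZT2 and 5.46 to 5.91 FPKM at ZT14, and its genotypes differed by -0.93 (adjusted p = 0.00349).

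Cry1, a repressor of CLOCK and BMAL1, was the one gene of this group called lower at ZT2. It stood at 12.4, 12.3 and 12.5 FPKM in KO-labelled hearts at ZT2 and at 15.1, 16.2 and 15.9 FPKM at ZT14, a fall of 0.32 on the log2 scale (adjusted p = 0.00124). In WT hearts the values were 7.39, 6.92 and 7.62 FPKM at ZT2 and 6.61, 7.64 and 6.97 FPKM at ZT14. Cry1 thus separated by time in KO-labelled hearts and overlapped in WT hearts, although the difference between genotypes (-0.36, adjusted p = 0.0478) was lost without any one of 10 of the 12 libraries (adjusted p = 0.0571 to 0.142).

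Most of the clock genes driven through E-boxes and D-boxes were lower at ZT2. Of the 10 measured, Per2, Per3, Cry2, Tef, Hlf and Ciart were called lower at ZT2 in KO-labelled hearts (10.2% of all genes were), and the median log2 difference of the 10 was -0.45. In WT hearts 8 of the 10 were lower at ZT2 (11.1% of all genes) and the median was -1.12. The difference between genotypes was called for 5 of the 10 (Dbp, Tef, Per3, Hlf and Bhlhe41), positive in each, against 0.526% of all genes. Ciart, a repressor of the loop, and Per3 are shown as examples of the 2 kinds of element, each as the 250 bases before the start on the gene's own strand in RefSeq GRCm38.p6, with the E-box CACGTG or the D-box TTATGNAA in capitals.
Ciart, chr3:95882229-95882478, minus strand: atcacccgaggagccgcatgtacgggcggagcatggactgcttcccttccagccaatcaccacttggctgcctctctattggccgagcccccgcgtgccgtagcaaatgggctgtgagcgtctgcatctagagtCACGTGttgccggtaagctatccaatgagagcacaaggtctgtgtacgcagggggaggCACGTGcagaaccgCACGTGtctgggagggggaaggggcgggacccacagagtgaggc
Per3, chr4:151044666-151044915, minus strand: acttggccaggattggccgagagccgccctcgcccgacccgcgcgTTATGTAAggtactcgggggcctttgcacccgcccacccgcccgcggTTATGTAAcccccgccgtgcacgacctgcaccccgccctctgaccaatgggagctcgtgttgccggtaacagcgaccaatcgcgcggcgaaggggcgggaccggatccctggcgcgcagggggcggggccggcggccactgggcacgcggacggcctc
Ciart has 3 E-boxes, 116, 58 and 44 bases before its start, and Per3 has 2 D-boxes, 205 and 158 bases before its start. Searched on both strands of the window described above, the E-box occurred in 4 of the 8 genes of this group with a window (Per1, Tef, Bhlhe41 and Ciart) and in 8.09% of all genes, and the D-box in 2 of the 8 (Per1 and Per3) and in 3.99% of all genes. These letters alone say nothing of binding in these hearts.

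Per2 (NCBI Gene 18627, chromosome 1), a core repressor of the loop, stood at 3.06, 3.47 and 4.50 FPKM in KO-labelled hearts at ZT2 and at 8.87, 8.98 and 8.44 FPKM at ZT14. The groups did not overlap, and mean FPKM was 2.38-fold lower at ZT2 (log2 difference -1.07 ± 0.18, SE, adjusted p = 8.46e-05). Its difference between genotypes did not pass the test (0.47, adjusted p = 0.423). Per3 (NCBI Gene 18628, chromosome 4) was very even within times, at 3.34, 3.32 and 3.37 FPKM at ZT2 and 6.64, 7.15 and 7.32 FPKM at ZT14, and was 2.10-fold lower at ZT2 (adjusted p = 1.9e-07). In WT hearts Per3 stood at 1.34, 2.29 and 2.20 FPKM at ZT2 and at 7.52, 8.06 and 7.63 FPKM at ZT14. The WT separation was the wider one, by 0.70 on the log2 scale (adjusted p = 0.00448). Cry2, the second cryptochrome, stood at 11.9, 12.0 and 11.6 FPKM at ZT2 and at 16.6, 18.7 and 17.8 FPKM at ZT14 in KO-labelled hearts, a fall of 0.54 (adjusted p = 1.96e-06).

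Ciart (NCBI Gene 229599, chromosome 3) stood at 16.03, 17.9 and 19.7 FPKM in KO-labelled hearts at ZT2 and at 36.9, 31.1 and 33.2 FPKM at ZT14, 1.89-fold lower at ZT2 (log2 difference -0.88 ± 0.19, SE, adjusted p = 0.00171). WT values were 2.39, 1.34 and 1.33 FPKM at ZT2 and 13.3, 7.38 and 5.40 FPKM at ZT14. Ciart thus sat at a higher level in KO-labelled hearts at both times, and the difference between genotypes in its time contrast did not pass the test (0.91, adjusted p = 0.0965). Tef and Hlf, both D-box activators, fell by 0.45 each on the log2 scale (adjusted p = 1.37e-05 and 0.000523). The difference between genotypes was 0.83 for Tef (adjusted p = 1.2e-06).

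Dbp, the third D-box activator, had the smallest p of all genes in the difference between genotypes. Dbp (NCBI Gene 13170, chromosome 7, positions 45705100 to 45710203, mm10) stood at 94.1, 96.1 and 97.4 FPKM in KO-labelled hearts at ZT2 and at 133, 104 and 112 FPKM at ZT14. In WT hearts it stood at 6.76, 6.49 and 5.73 FPKM at ZT2 and at 81.5, 61.1 and 49.7 FPKM at ZT14. No ZT2 library reached any ZT14 library in either genotype, but the KO separation of -0.27 (95% CI -0.51 to -0.03) did not pass after adjustment (adjusted p = 0.121), whereas WT hearts differed by -3.13. The difference between genotypes was 2.86 ± 0.17 (SE, adjusted p = 6.99e-12). Per1, Bhlhe40 and Bhlhe41, further targets of the loop, did not pass in KO-labelled hearts (adjusted p = 0.629, 0.188 and 0.78), and Bhlhe41 differed between genotypes by 0.73 (adjusted p = 0.00094).

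**Figure D1:**
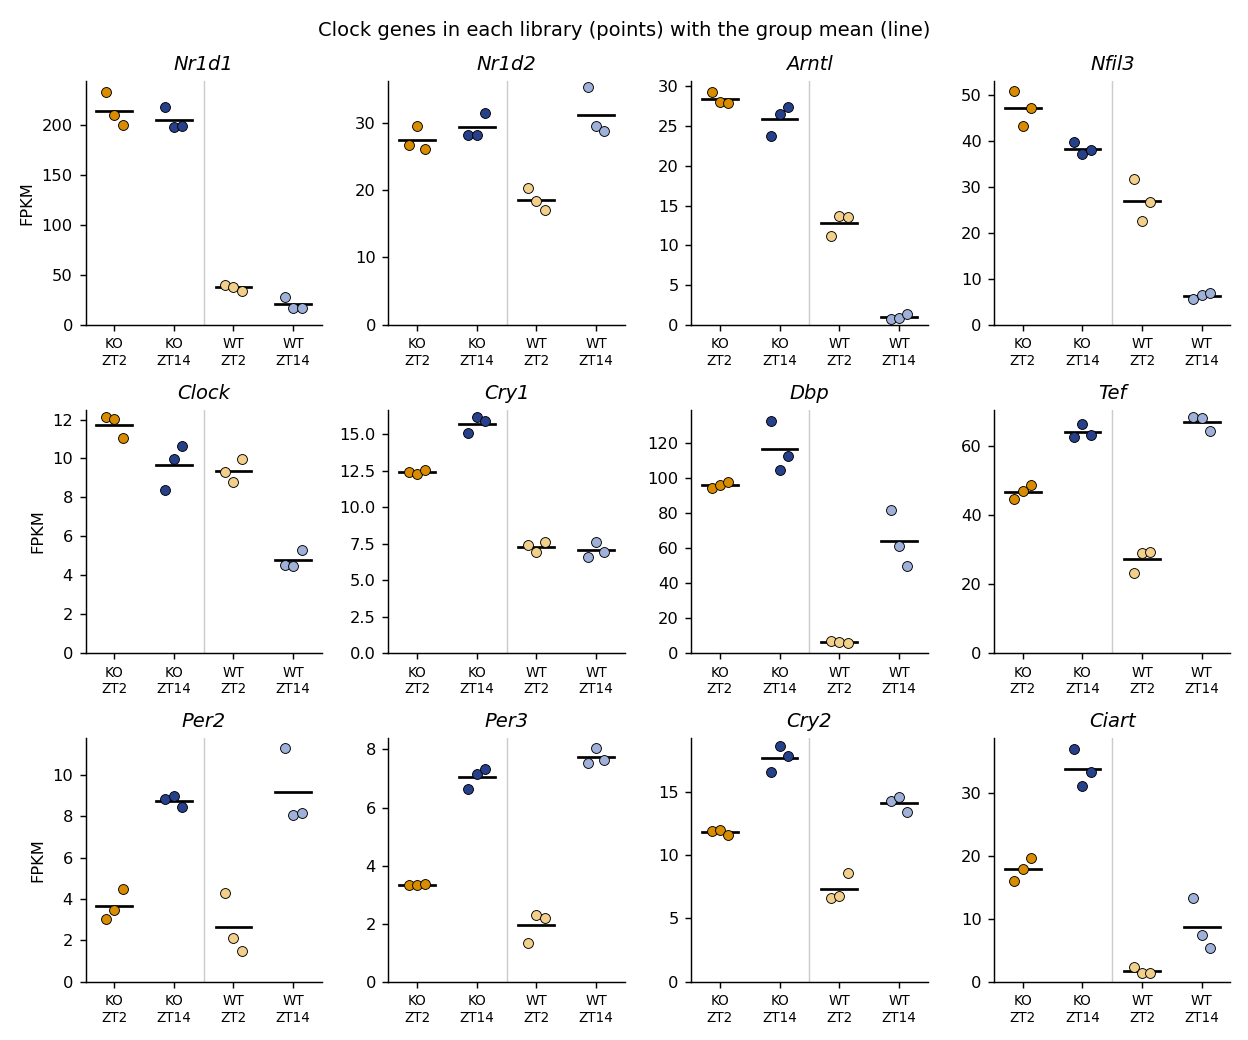
FPKM of 12 clock genes in each library of KO hearts at ZT2 and ZT14 and of WT hearts at ZT2 and ZT14, with points for libraries and a line for each group mean. Arntl lies at 23.7 to 29.3 FPKM in all KO libraries and at 0.73 to 1.33 FPKM in WT hearts at ZT14, while Per2, Per3, Cry2 and Ciart separate by time in both genotypes.

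Across all genes, the difference between the genotypes in the ZT2 against ZT14 contrast passed the test for 152 of 11790 genes (1.29%), 62 of them positive (0.526%) and 90 negative (0.763%). A size of at least 1 on the log2 scale was reached by 11 genes (0.0933%), 4 positive (0.0339%) and 7 negative (0.0594%). The count was 66 without KO ZT2 replicate 2, 84 without KO ZT2 replicate 3, 100 without KO ZT14 replicate 2 and 101 without WT ZT14 replicate 1. Of the 152 genes, 109 had the smaller time difference in KO-labelled hearts and 43 had the larger one there. In WT hearts 2305 genes (19.6%) were called between ZT2 and ZT14. Called in both genotypes were 1007 genes, 49.1% of those called in KO-labelled hearts and 43.7% of those called in WT hearts, and 997 of them had one direction in both. For 1985 of the 2049 genes called in KO-labelled hearts (96.9%), no difference between genotypes was called, which does not show that the time differences were equal.

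Slc41a3, a member of a magnesium transporter family, was next to the clock genes among those with the smallest p in this test. It stood at 191, 166 and 184 FPKM in KO-labelled hearts at ZT2 and at 239, 209 and 218 FPKM at ZT14, against 44.0, 48.6 and 46.9 FPKM in WT hearts at ZT2 and 7.67, 8.83 and 9.31 FPKM at ZT14. The KO contrast did not pass (-0.30, adjusted p = 0.135), WT hearts were 2.31 higher at ZT2 on the log2 scale, and the difference between genotypes was -2.61 (adjusted p = 6.15e-10). Tcap, which encodes the titin cap protein telethonin, stood at 2379, 2214 and 2316 FPKM in KO-labelled hearts at ZT2 and at 3038, 2544 and 2468 FPKM at ZT14 (-0.22, adjusted p = 0.114). WT hearts had 580, 527 and 595 FPKM of Tcap at ZT2 and 1867, 1695 and 1462 FPKM at ZT14. The genotypes differed by 1.34 in this contrast (adjusted p = 1.85e-07). Tcap and Slc41a3 thus had the pattern seen for Dbp, a wide separation by time in WT hearts and a narrow one at a high level in KO-labelled hearts. Lingo3, a leucine-rich repeat membrane protein, and Clasp1, a microtubule-binding protein, were higher at ZT2 in WT hearts by 1.04 and 0.82 and differed by 0.06 and 0.11 in KO-labelled hearts.

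Of the 152 genes, 10 were called in both genotypes with opposite directions. Ptp4a1, a protein tyrosine phosphatase, stood at 44.6, 50.7 and 46.6 FPKM in KO-labelled hearts at ZT2 and at 35.5, 34.9 and 36.7 FPKM at ZT14, a rise of 0.40 ± 0.05 (SE, adjusted p = 1.44e-06). In WT hearts it was lower at ZT2, with a log2 difference of -0.30 and with 58.4, 57.3 and 59.5 FPKM at ZT2 and 75.2, 68.6 and 73.1 FPKM at ZT14. The difference between genotypes was 0.70 (adjusted p = 1.85e-07). Myh6, the main adult myosin heavy chain of the mouse ventricle, whose promoter is usually meant by MHC in such lines, stood at 3760, 3629 and 3446 FPKM in KO-labelled hearts at ZT2 and at 4495, 4494 and 4183 FPKM at ZT14. Myh6 fell by 0.28 in KO-labelled hearts (adjusted p = 0.00682) and was 0.25 higher at ZT2 in WT hearts, a difference between genotypes of -0.54 (adjusted p = 0.00444). Quantile normalization ended both Myh6 calls (adjusted p = 0.0761 for the KO contrast and 0.133 for the difference).

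**Figure D2:**
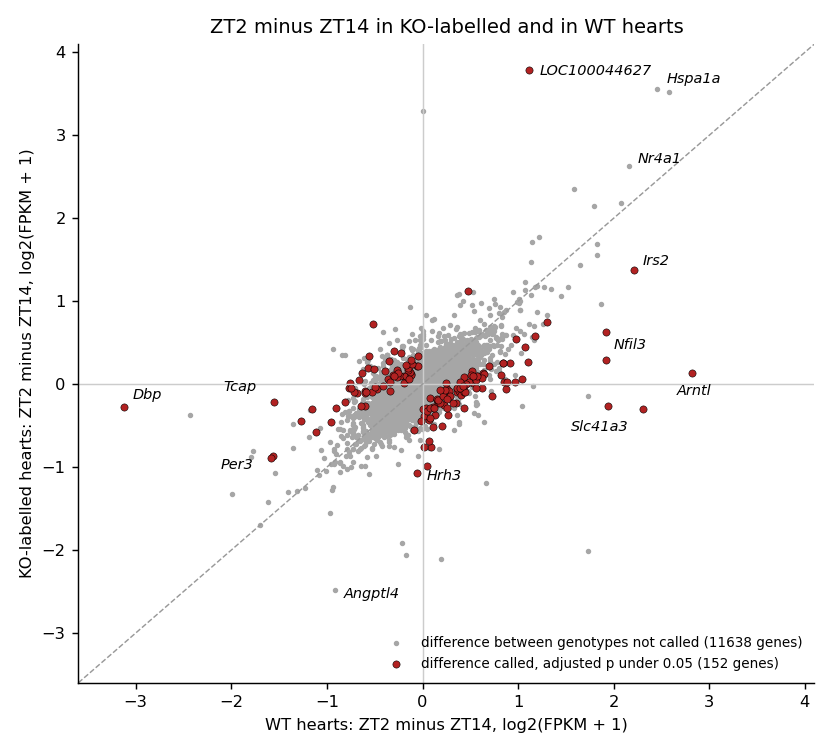
Log2 difference of ZT2 minus ZT14 in KO hearts (vertical axis) against the same in WT hearts (horizontal axis), 1 point for each of the 11790 genes tested. The 152 genes in red passed the test of the difference between genotypes, and Arntl, Slc41a3 and Dbp lie far out along the horizontal axis and near 0 on the vertical one.

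Genes of protein folding rose together at ZT2. Of 23 heat shock and chaperone genes, 18 rose in KO-labelled hearts, against 7.13% of all genes, and Ahsa1, Cryab, Hsf1, Bag3 and Hsf2 did not pass. The median log2 difference of the 23 genes was 0.39, and for 19 of them the 3 ZT2 values lay apart from the 3 ZT14 values, against 33.1% of all genes. In WT hearts 17 of the 23 were higher at ZT2 (8.5% of all genes), with a median of 0.30. Hspa1a (NCBI Gene 193740, chromosome 17, positions 34969359 to 34972156, mm10), the inducible HSP70, stood at 71.0, 50.8 and 39.7 FPKM in KO-labelled hearts at ZT2 and at 5.47, 3.22 and 2.36 FPKM at ZT14. Its mean was 14.6-fold higher at ZT2 (log2 difference 3.56 ± 0.35, SE, adjusted p = 5.96e-08). Its near-identical neighbour Hspa1b had 28.5 to 55.2 FPKM at ZT2 and 1.79 to 3.37 FPKM at ZT14, and how reads were split between these 2 genes is uncertain.

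Hspa8, Hsp90aa1, Dnajb1 and Dnaja1 rose by smaller ratios. Hspa8, the constitutive HSP70, stood at 1530, 1525 and 1492 FPKM at ZT2 and at 1128, 1130 and 1123 FPKM at ZT14, a rise of 0.43 on the log2 scale (adjusted p = 3.32e-05). Hsp90aa1, the inducible cytosolic HSP90, stood at 214, 209 and 178 FPKM at ZT2 and at 95.4, 102 and 94.8 FPKM at ZT14 and rose by 1.03 (adjusted p = 0.000169). The HSP40 co-chaperones Dnajb1 and Dnaja1 rose by 1.00 and 0.93 (adjusted p = 1.77e-05 and 2.24e-05). For each of these genes the ZT2 and ZT14 values did not overlap. The 2 cold-inducible RNA-binding genes went the other way. Cirbp had 20.6, 23.0 and 22.3 FPKM at ZT2 and 30.1, 33.1 and 30.2 FPKM at ZT14 (-0.49, adjusted p = 3.05e-05), and Rbm3 fell by 0.34 (adjusted p = 0.00133).

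The chaperones of the endoplasmic reticulum, where secreted and membrane proteins fold, moved in the same direction. Of 15 genes, 14 rose at ZT2 and Herpud1, which acts in the disposal of misfolded proteins, fell (log2 difference -0.26, adjusted p = 0.00449), against 7.13% of all genes higher and 10.2% lower, and the median was 0.40. In WT hearts 13 were higher and 1 was lower at ZT2, with a median of 0.46. Hspa5, the HSP70 of this compartment known as BiP, stood at 276, 253 and 221 FPKM at ZT2 and at 189, 175 and 202 FPKM at ZT14 (0.40, adjusted p = 0.000586). Xbp1, a transcription factor of the unfolded protein response, stood at 38.1, 35.4 and 35.2 FPKM at ZT2 and at 24.2, 24.0 and 23.4 FPKM at ZT14 and rose by 0.58 ± 0.06 (SE, adjusted p = 2.42e-07). Manf, a secreted protein of the same response, was 1.94-fold higher at ZT2 (adjusted p = 6.36e-06), and the disulfide isomerases Pdia4 and Pdia6 rose by 0.60 and 0.50. All 15 genes had ZT2 values apart from their ZT14 values, as had 33.1% of all genes.

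Elements through which these 2 groups of genes are known to be induced are shown for Hspe1, the mitochondrial HSP10, and Hspa5, each as the 250 bases before the start in RefSeq GRCm38.p6. Capitals mark the heat shock element in Hspe1, which is TTC, GAA and TTC, or GAA, TTC and GAA, each 2 bases apart, and the endoplasmic reticulum stress element in Hspa5, which is CCAAT and CCACG with 9 bases between them.
Hspe1, chr1:55087898-55088147, plus strand: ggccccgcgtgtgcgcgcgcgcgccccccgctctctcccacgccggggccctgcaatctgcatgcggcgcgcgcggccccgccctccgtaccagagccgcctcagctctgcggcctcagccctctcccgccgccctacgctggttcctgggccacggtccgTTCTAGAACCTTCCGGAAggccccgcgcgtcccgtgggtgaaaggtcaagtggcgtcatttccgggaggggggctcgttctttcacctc
Hspa5, chr2:34771840-34772089, plus strand: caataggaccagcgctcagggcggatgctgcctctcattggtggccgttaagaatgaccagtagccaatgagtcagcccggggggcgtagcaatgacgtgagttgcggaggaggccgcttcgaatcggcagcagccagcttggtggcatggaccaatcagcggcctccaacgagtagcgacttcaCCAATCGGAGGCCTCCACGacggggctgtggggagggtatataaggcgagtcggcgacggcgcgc
In Hspe1, matches to the 2 forms overlap, 89 and 84 bases before the start, and in Hspa5 the single match lies 65 bases before the start. Searched on both strands of the 250 bases before and 50 bases after each start, the heat shock element occurred in 4 of 18 heat shock genes with a window (Hsph1, Hspe1, Hspd1 and Chordc1) and in 0.662% of all genes. The stress element occurred in 6 of 13 reticulum chaperones (Hspa5, Hsp90b1, Pdia6, Calr, Creld2 and Dnajc3) and in 0.137% of all genes. Hspe1 stood at 141, 170 and 159 FPKM at ZT2 and at 122, 116 and 113 FPKM at ZT14 in KO-labelled hearts (0.42, adjusted p = 0.00491).

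**Figure D3:**
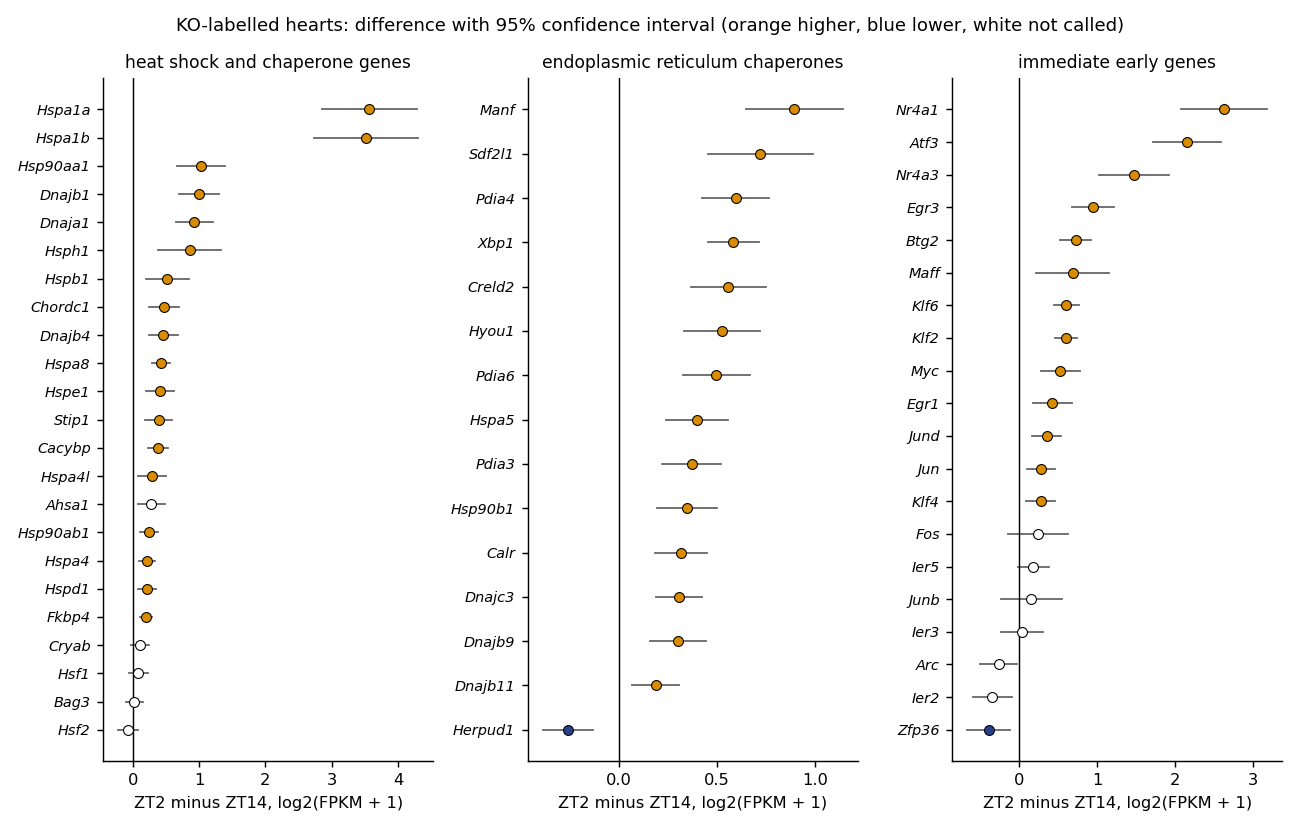
Log2 difference of ZT2 minus ZT14 in KO hearts with its 95% confidence interval for each measured gene of 3 lists, the heat shock and chaperone genes, the endoplasmic reticulum chaperones and the immediate early genes. Most heat shock and reticulum genes lie right of 0, with Herpud1 at -0.26 as the one called reticulum gene on the left.

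Immediate early genes, which respond within minutes to growth factors, stretch or stress, formed another group that was higher at ZT2. Of the 20 tested out of 23, 13 rose and 1 fell in KO-labelled hearts, against 7.13% of all genes higher and 10.2% lower, with a median log2 difference of 0.39. With genes of a mean under 5 FPKM left out, the split was 8 higher and 2 lower. Nr4a1 (NCBI Gene 15370, chromosome 15, positions 101253902 to 101274795, mm10), an orphan nuclear receptor, stood at 13.9, 18.6 and 25.4 FPKM at ZT2 and at 2.51, 1.98 and 2.14 FPKM at ZT14. Its mean was 8.72-fold higher at ZT2 (log2 difference 2.62 ± 0.27, SE, adjusted p = 1.2e-07). Its relative Nr4a3 stood at 2.67, 3.38 and 3.81 FPKM at ZT2 and at 0.71, 0.46 and 0.44 FPKM at ZT14. Atf3, a stress-induced transcription factor, stood at 14.8, 15.1 and 13.3 FPKM at ZT2 and at 3.07, 2.37 and 2.02 FPKM at ZT14 (2.15, adjusted p = 5.63e-08). The Krüppel-like factors Klf2 and Klf6 rose by 0.60 and 0.61 (adjusted p = 9.77e-07 and 1.76e-06). Fos, the best-known gene of the class, was low throughout, at 1.48 to 2.26 FPKM at ZT2 and 1.20 to 1.66 FPKM at ZT14, and did not pass (adjusted p = 0.403). The one called lower was Zfp36, which encodes an RNA-decay factor (-0.38, adjusted p = 0.0442), and it lost its call without any one of the 6 libraries but ZT2 replicate 3 (adjusted p = 0.0652 to 0.135).

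Sik1, Errfi1 and Irs2, genes of kinase and growth factor signalling, were among the other largest increases at ZT2. Sik1, a salt-inducible kinase that acts on CREB signalling, stood at 23.0, 21.0 and 22.2 FPKM at ZT2 and at 7.23, 5.52 and 5.76 FPKM at ZT14, 3.58-fold higher (adjusted p = 1.07e-10). Errfi1, a feedback inhibitor of the EGF receptor, stood at 17.2, 18.5 and 19.7 FPKM at ZT2 and at 6.29, 6.04 and 6.25 FPKM at ZT14 (1.43, adjusted p = 1.19e-07). Irs2, an adaptor of the insulin receptor, stood at 5.73, 5.42 and 6.58 FPKM at ZT2 and at 1.92, 1.30 and 1.81 FPKM at ZT14, a rise of 1.37 ± 0.12 (SE, adjusted p = 1.23e-08). Irs2 differed more in WT hearts, by 2.21, and the genotypes differed by -0.84 (adjusted p = 0.00992). Secreted products were also among the largest increases. Gdf15, a stress cytokine, stood at 12.9, 9.83 and 11.8 FPKM at ZT2 and at 3.32, 3.13 and 2.07 FPKM at ZT14 (adjusted p = 4.96e-06), and the matrix proteins Thbs1 and Spon2 rose by 2.35 and 2.18. Thbs1 was uneven at ZT2, with 3.67, 9.19 and 14.8 FPKM, against 0.70 to 0.90 FPKM at ZT14. Tfrc, the transferrin receptor of iron uptake, stood at 27.7, 28.6 and 26.8 FPKM at ZT2 and at 13.6, 9.92 and 10.3 FPKM at ZT14 (1.23, adjusted p = 0.00204).

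The entry with the largest increase, LOC100044627 (NCBI Gene 100044627), is uncertain. It stood at 169, 192 and 182 FPKM at ZT2 and at 15.9, 8.66 and 12.9 FPKM at ZT14 in KO-labelled hearts, and averaged 175, 184 and 194 FPKM at ZT6, ZT10 and ZT18. WT hearts had 177, 173 and 171 FPKM at ZT2 and 178, 166 and 16.8 FPKM at ZT14. The 4 libraries with a low value at these times were thus labelled ZT14, with 1 of them from a WT heart.

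The largest decrease at ZT2 was that of Angptl4 (NCBI Gene 57875, chromosome 17, positions 33774900 to 33781575, mm10), a secreted inhibitor of lipoprotein lipase that is induced by fasting and by PPAR receptors. It stood at 6.06, 6.12 and 6.53 FPKM in KO-labelled hearts at ZT2 and at 41.6, 45.3 and 32.7 FPKM at ZT14, 6.39-fold lower at ZT2 (log2 difference -2.48 ± 0.30, SE, adjusted p = 1.44e-06). The ZT2 values were close together and far below every ZT14 value. WT hearts had a log2 difference of -0.92, and the difference between genotypes did not pass (-1.57, adjusted p = 0.0677). Other members of the PPAR and fasting list did not follow as a group. Of 17 tested, 2 rose (Cd36 and Fabp3) and 2 fell (Angptl4 and Cpt1a), against 7.13% of all genes higher and 10.2% lower. The median of the 17 was -0.02. Cpt1a, which lets long-chain fatty acids into mitochondria, stood at 10.7, 10.9 and 11.1 FPKM at ZT2 and at 13.7, 13.4 and 14.3 FPKM at ZT14 (-0.32, adjusted p = 0.0029). Cd36 and Fabp3, of fatty acid uptake and binding, overlapped between times and lost their calls without some single libraries. For Cd36 these were ZT2 replicate 2 (adjusted p = 0.125), ZT14 replicate 1 (0.167) and ZT14 replicate 2 (0.0802). For Fabp3 they were ZT2 replicate 2 (adjusted p = 0.0565), ZT2 replicate 3 (0.121), ZT14 replicate 2 (0.14) and ZT14 replicate 3 (0.0725).

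Hes1, Arl4d, Adh1 and Nr0b2 were also among the largest decreases. Hes1, a transcriptional repressor induced by Notch, stood at 13.7, 12.7 and 12.4 FPKM at ZT2 and at 34.8, 29.7 and 33.9 FPKM at ZT14 (-1.28, adjusted p = 8.95e-11). Arl4d, a small GTPase, stood at 8.38, 9.29 and 9.28 FPKM at ZT2 and at 21.98, 23.9 and 24.1 FPKM at ZT14, and Adh1, an alcohol dehydrogenase, fell by 1.30 (adjusted p = 2.43e-05). Nr0b2, an orphan nuclear receptor that represses other nuclear receptors and is best known from liver, stood at 7.78, 7.90 and 10.4 FPKM at ZT2 and at 18.8, 20.01 and 19.5 FPKM at ZT14. In none of these 4 genes did the ZT2 values overlap the ZT14 values. Hrh3, the histamine H3 receptor, stood at 1.03, 1.43 and 1.47 FPKM at ZT2 and at 3.86, 5.16 and 2.75 FPKM at ZT14 (-1.07, adjusted p = 3.2e-06) and was at most 0.06 FPKM in the WT libraries of both times. Pygl, the liver form of glycogen phosphorylase, ranged from 4.71 to 46.2 FPKM at ZT2 and from 54.5 to 106 FPKM at ZT14. Its call (adjusted p = 0.0267) was lost without ZT2 replicate 3 (0.22), ZT14 replicate 2 (0.0806) or ZT14 replicate 3 (0.0902).

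Glucocorticoid-responsive genes moved in both directions. Of 18, 4 rose (Ddit4, Nfkbia, Errfi1 and Cebpd) and 4 fell (Pik3r1, Fkbp5, Zbtb16 and Mt2) at ZT2, against 7.13% and 10.2% of all genes, and without KO ZT2 replicate 1 the split was 4 and 1. Pik3r1, a regulatory subunit of PI3 kinase, stood at 18.8, 19.9 and 18.9 FPKM at ZT2 and at 35.8, 43.3 and 39.3 FPKM at ZT14 and fell by 1.00 (adjusted p = 1.39e-05). Nfkbia, the inhibitor of NF-κB, stood at 27.3, 33.7 and 40.9 FPKM at ZT2 and at 19.3, 16.6 and 17.8 FPKM at ZT14 and rose by 0.87 (adjusted p = 5.44e-05). The metallothionein Mt2 fell by 1.33 (adjusted p = 0.00964) and the zinc finger factor Zbtb16 by 1.26 (adjusted p = 0.0131). Without KO ZT2 replicate 1, which had the lowest value of both at 17.5 and 7.13 FPKM, the adjusted p was 0.0984 for Mt2 and 0.0695 for Zbtb16. The call of Ddit4, an inhibitor of mTORC1 signalling, was lost without KO ZT14 replicate 2 (adjusted p = 0.0791).

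The FoxO, atrophy and autophagy genes also went in both directions. The muscle ubiquitin ligases Trim63 and Fbxo32 were higher at ZT2. Trim63 stood at 112, 117 and 113 FPKM at ZT2 and at 68.3, 73.3 and 75.0 FPKM at ZT14 (0.65, adjusted p = 1.42e-06), and Fbxo32 rose by 0.56 (adjusted p = 0.00224). The autophagy genes Ulk1, a starting kinase, and Sqstm1, a cargo receptor, were lower at ZT2. Sqstm1 stood at 249, 250 and 269 FPKM at ZT2 and at 319, 351 and 346 FPKM at ZT14 (-0.40, adjusted p = 0.000601), and Ulk1 fell by 0.35 (adjusted p = 0.000208). Over the 20 genes tested, 3 rose, 5 fell (7.13% and 10.2% of all genes) and the median was -0.08.

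In glycogen metabolism the targeting subunits of protein phosphatase 1, which bring the enzyme to glycogen, diverged. Ppp1r3c stood at 157, 155 and 141 FPKM at ZT2 and at 87.4, 96.4 and 91.0 FPKM at ZT14 and rose by 0.71 (adjusted p = 1.17e-06). Ppp1r3b stood at 27.5, 22.5 and 17.9 FPKM at ZT2 and at 38.0, 42.1 and 38.4 FPKM at ZT14 and fell by 0.80 (adjusted p = 0.000268), and Ppp1r3d fell by 0.63. Over 18 genes of the list, 1 rose and 5 fell (7.13% and 10.2% of all genes), or 1 and 3 without KO ZT2 replicate 2. In triglyceride turnover 4 of 17 genes fell (Pnpla2, Lipe, G0s2 and Plin4), against 10.2% of all genes. Plin4, a lipid droplet coat protein, stood at 35.1, 32.2 and 33.1 FPKM at ZT2 and at 44.8, 46.9 and 48.2 FPKM at ZT14 (-0.47, adjusted p = 1e-05), and the lipase Lipe fell by 0.37 (adjusted p = 0.00333). The call of the lipase inhibitor G0s2 was lost without KO ZT2 replicate 3 (adjusted p = 0.069), and that of the lipase Pnpla2 without KO ZT2 replicate 1 (0.0505) or replicate 2 (0.0614).

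Of 20 fatty acid oxidation genes, Slc27a1, a fatty acid transport protein, was the one called, with 50.3, 46.9 and 49.2 FPKM at ZT2 and 64.0, 62.0 and 63.3 FPKM at ZT14 (-0.36, adjusted p = 0.00103), and the median was 0.01. In the main fit 10.2% of all genes were called lower. Quantile normalization called 3 genes of this list lower. In the branched-chain amino acid list the smallest adjusted p was 0.0861, for Bckdha. In glucose uptake and glycolysis 2 of 21 genes rose and 3 fell, against 7.13% and 10.2% of all genes. Pfkfb2, which makes the activator of phosphofructokinase, rose by 0.54 (adjusted p = 0.0007), and the glycolytic enzymes Pfkm and Pkm fell by 0.16 and 0.12. Hk2, a further glycolytic enzyme, rose by 0.22 (adjusted p = 0.0151). Its call was lost without KO ZT2 replicate 1 (0.139) or KO ZT14 replicate 3 (0.0872). Pdp2, a phosphatase that activates pyruvate dehydrogenase, stood at 2.72, 2.96 and 3.42 FPKM at ZT2 and at 5.26, 4.82 and 4.57 FPKM at ZT14 (-0.55, adjusted p = 0.000375).

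NRF2 antioxidant genes were mostly lower at ZT2 where they moved. Of 16, 6 fell and Prdx1 rose, against 10.2% of all genes lower and 7.13% higher, with a median of -0.15, and without KO ZT14 replicate 2, 3 of the falls were called. The rise of Prdx1, a peroxiredoxin, by 0.13 (adjusted p = 0.0424) was lost without ZT2 replicate 2 (0.157), ZT2 replicate 3 (0.181), ZT14 replicate 2 (0.0953) or ZT14 replicate 3 (0.156). Gclm, a subunit of the ligase that starts glutathione synthesis, stood at 8.73, 10.6 and 10.5 FPKM at ZT2 and at 15.8, 17.2 and 17.9 FPKM at ZT14 (-0.72, adjusted p = 5.55e-06). Osgin1, which is induced by oxidative stress, stood at 3.71, 3.47 and 4.42 FPKM at ZT2 and at 14.5, 15.4 and 10.3 FPKM at ZT14 and fell by 1.56 (adjusted p = 9.13e-09). The p53-responsive genes gave 4 rises in 14 (Ccng1, Eda2r, Trp53inp1 and Tigar), against 7.13% of all genes. Without KO ZT2 replicate 2 or KO ZT14 replicate 1 there were 2 rises. Ccng1, a cyclin-like p53 target, had 626, 676 and 625 FPKM at ZT2 and 520, 543 and 593 FPKM at ZT14 (0.22, adjusted p = 0.00209).

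Of 11 cardiac stress and fetal genes tested, Nppb, Rcan1, Gdf15 and Tnfrsf12a rose at ZT2, against 7.13% of all genes. Nppb, the gene for brain natriuretic peptide and a standard marker of cardiac load, stood at 1571, 1544 and 1374 FPKM in KO-labelled hearts at ZT2 and at 795, 833 and 778 FPKM at ZT14, 1.87-fold higher at ZT2 (log2 difference 0.90 ± 0.17, SE, adjusted p = 0.000584). WT hearts had 589, 695 and 357 FPKM of Nppb at ZT2 and 293, 216 and 277 FPKM at ZT14, a log2 difference of 1.02 at lower levels. Rcan1, a calcineurin regulator that is itself induced by calcineurin, stood at 143, 127 and 114 FPKM at ZT2 and at 84.3, 74.4 and 68.6 FPKM at ZT14 (0.75, adjusted p = 5.99e-06). Tnfrsf12a, a receptor induced by injury, stood at 127, 119 and 121 FPKM at ZT2 and at 82.9, 84.7 and 82.3 FPKM at ZT14 (0.55, adjusted p = 0.00842).

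Extracellular matrix genes were mostly higher at ZT2 where they moved, with 10 rises and 1 fall among 24, against 7.13% of all genes higher and 10.2% lower, and a median of 0.24. Eln, the gene for elastin, stood at 19.8, 17.4 and 17.2 FPKM at ZT2 and at 9.18, 8.32 and 8.54 FPKM at ZT14 (0.98, adjusted p = 1.98e-07). Ccn2, a matricellular protein induced by TGF-β and YAP signalling, stood at 68.4, 74.3 and 77.5 FPKM at ZT2 and at 36.6, 41.7 and 39.8 FPKM at ZT14 (0.88, adjusted p = 3.05e-05). Timp3, an inhibitor of matrix proteases, was the one that fell, with 46.8, 53.6 and 54.2 FPKM at ZT2 and 83.5, 88.8 and 87.4 FPKM at ZT14. The summed level of 8 fibroblast markers was also higher at ZT2, at 988 to 1065 FPKM against 879 to 942 FPKM at ZT14, and 1 of the 8, Dpt, passed the test (0.34, adjusted p = 0.000231). Summed smooth muscle and pericyte markers were 557 to 631 FPKM at ZT2 and 477 to 523 FPKM at ZT14, with Myh11 the one called, and it was lower at ZT2 (-0.29, adjusted p = 0.00609). Of these 8 markers only 2, Acta2 and Rgs5, had a positive log2 difference, and neither passed (adjusted p = 0.158 and 0.103). Their median was -0.06, so the higher sum did not reflect most of these markers. The part of these cell types in the matrix result was not tested.

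Ion channels of the action potential gave 3 rises (Cacnb2, Kcna5 and Gja1) and 3 falls (Cacna1c, Kcnh2 and Kcnj11) in 23 genes, against 7.13% of all genes higher and 10.2% lower, or 5 rises and 3 falls with median-ratio scaling. Cacnb2, a subunit that sets the surface level and gating of the L-type calcium channel, stood at 24.6, 23.2 and 22.4 FPKM at ZT2 and at 13.7, 14.8 and 15.6 FPKM at ZT14 and rose by 0.64 ± 0.06 (SE, adjusted p = 1.72e-08). Cacna1c, the pore of the same channel, went the other way, with 15.8, 14.1 and 13.2 FPKM at ZT2 and 16.4, 17.6 and 19.9 FPKM at ZT14 (-0.31, adjusted p = 0.00206). The potassium channel genes Kcnh2 and Kcnj11 fell by 0.26 and 0.21 (adjusted p = 0.0035 and 0.000513). The call of Kcna5 was lost without ZT2 replicate 3 (adjusted p = 0.0755), and that of Gja1 without ZT2 replicate 1 (0.204), ZT2 replicate 2 (0.109), ZT14 replicate 1 (0.225) or ZT14 replicate 2 (0.0736). In calcium handling Camk2d, the main cardiac CaM kinase, rose by 0.20 (adjusted p = 0.00124). In the sarcomere list Lmod2, which elongates thin filaments, stood at 373, 367 and 349 FPKM at ZT2 and at 256, 277 and 265 FPKM at ZT14 (0.45, adjusted p = 3.4e-05), while the giant spring protein gene Ttn fell by 0.38 (adjusted p = 5.79e-05) and Mybpc3 by 0.19. Over the 22 sarcomere genes, 2 rose and 3 fell (7.13% and 10.2% of all genes), or 2 and 5 without KO ZT14 replicate 1 or with quantile normalization.

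Differences in the large families of ribosomal and respiratory genes were small. Of 76 cytosolic ribosomal protein genes, 27 rose at ZT2, against 7.13% of all genes, with a median log2 difference of 0.12. The count was 10 without KO ZT2 replicate 2, 15 without KO ZT2 replicate 3, 13 without KO ZT14 replicate 2, 14 without KO ZT14 replicate 3, 13 with quantile normalization and 12 in a fit to the 6 KO libraries alone. Rpl9, for example, stood at 395, 408 and 390 FPKM at ZT2 and at 347, 335 and 330 FPKM at ZT14 (0.24, adjusted p = 0.00335). Of 77 mitochondrial ribosomal genes 6 rose, a share near the 7.13% of all genes. The count was 13 without KO ZT2 replicate 1 and 3 without KO ZT2 replicate 2, KO ZT14 replicate 2 or KO ZT14 replicate 3. Of 37 respiratory chain genes 9 rose and 1 fell (7.13% and 10.2% of all genes), but this split turned with the scaling: median-ratio scaling gave 15 rises, and quantile normalization gave 2 rises and 6 falls. Without KO ZT2 replicate 3 it was 4 rises. Cox6c, a subunit of cytochrome c oxidase, had the smallest p of these genes, at 1613, 1924 and 1667 FPKM at ZT2 and 1277, 1387 and 1445 FPKM at ZT14 (0.34, adjusted p = 4.31e-05). Of the citric acid cycle genes called lower, Cs, Ogdh and Sdha lost their calls without KO ZT2 replicate 2, with edgeR on rebuilt counts and in a fit to the 6 KO libraries alone. Without KO ZT2 replicate 3 or KO ZT14 replicate 3, 1 gene of that list was called.

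**Figure D4:**
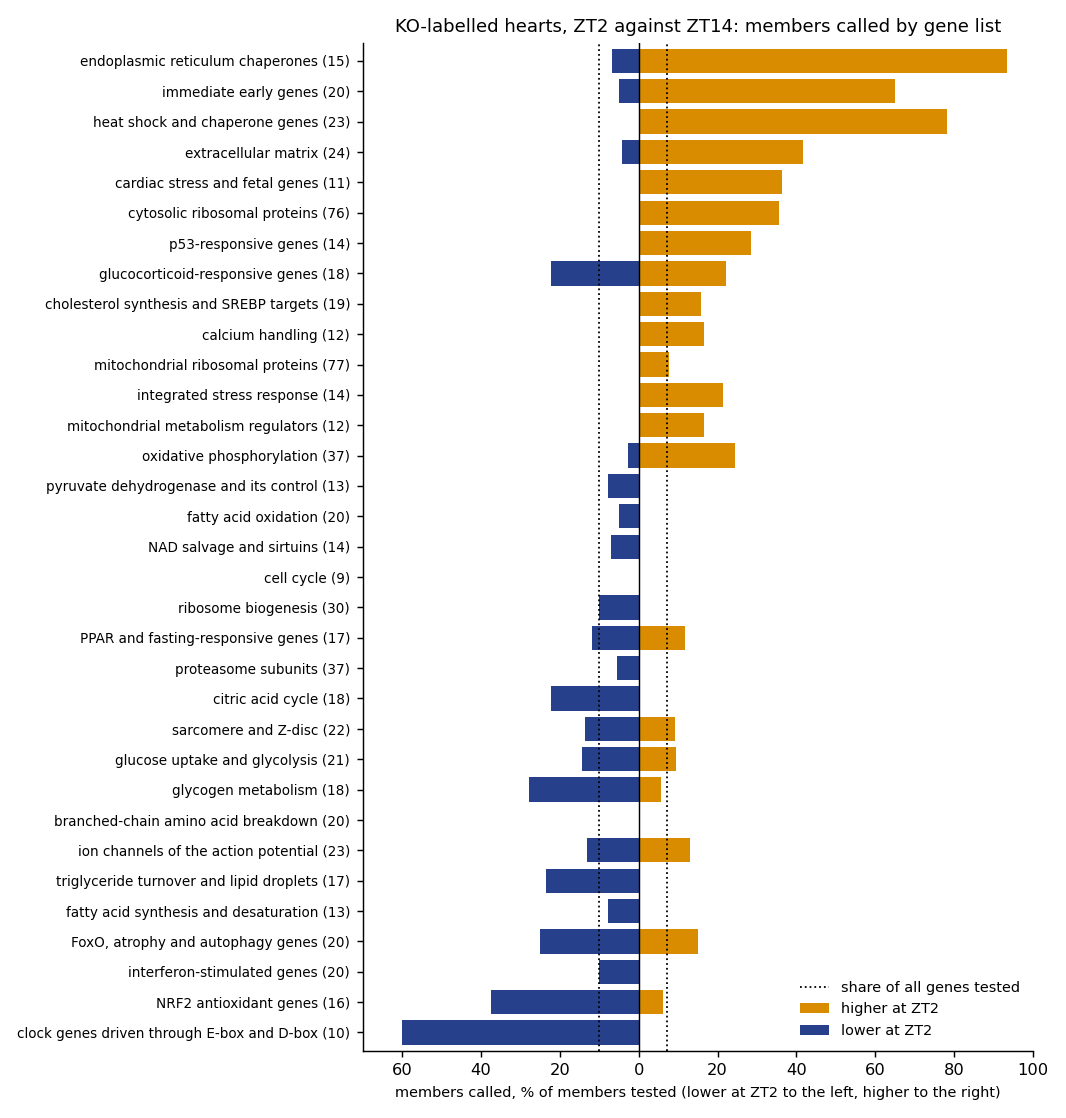
Percent of the tested members of each gene list called lower (left) and higher (right) at ZT2 against ZT14 in KO hearts, for lists with at least 9 tested genes. Dotted lines mark the share of all genes, 10.2% lower and 7.13% higher, and the reticulum chaperones and heat shock genes reach farthest to the right.

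The lists that follow had few called genes each, and over all genes 7.13% were called higher and 10.2% lower. The share called was 5.41% for proteasome subunits and 10% for both ribosome biogenesis and interferon-stimulated genes. It was 15.8% for cholesterol synthesis and 21.4% for the integrated stress response. Of 37 proteasome subunits, Psmd1 and Psmd11 fell, and with quantile normalization 6 did. Psmd1 was not called without KO ZT2 replicate 3, KO ZT14 replicate 1 or KO ZT14 replicate 2 (adjusted p = 0.117, 0.0604 and 0.0668). Of 30 ribosome biogenesis genes Polr1a, which encodes the large subunit of RNA polymerase I, and Rrs1 fell by 0.26 and 0.38, and Rrp1b was called but not without KO ZT2 replicate 2, KO ZT14 replicate 2 or KO ZT14 replicate 3 (adjusted p = 0.17, 0.0594 and 0.102). Of 20 interferon-stimulated genes, Ifit3 fell, though not without KO ZT14 replicate 1 (adjusted p = 0.069), and Ifit2 fell, though not without KO ZT2 replicate 1, KO ZT2 replicate 2 or KO ZT14 replicate 3 (adjusted p = 0.0564, 0.076 and 0.0669). The cholesterol synthesis list gave 3 rises in 19 (Hmgcs1, Fdps and Insig1), of which 1 was called without KO ZT2 replicate 2, KO ZT2 replicate 3, KO ZT14 replicate 1 or KO ZT14 replicate 2. Insig1 lost its call without any one of the 6 KO libraries (adjusted p = 0.0569 to 0.114). The integrated stress response list gave 3 rises in 14 (Atf4, Chac1 and Gdf15), and 1 without KO ZT2 replicate 2, KO ZT2 replicate 3, KO ZT14 replicate 2 or KO ZT14 replicate 3. Atf4 lost its call without any one of the 6 KO libraries (adjusted p = 0.0614 to 0.119). Perm1, a muscle regulator of mitochondrial metabolism, rose by 0.21 (adjusted p = 0.0043).

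The other KO-labelled times placed ZT2 and ZT14 within the day, as means with no further test. KO ZT22, the time just before ZT2, had no values to use, so a peak or trough there would not be seen. Hspa1a averaged 53.8 FPKM at ZT2, 2.47 at ZT6, 0.80 at ZT10, 3.68 at ZT14 and 4.17 at ZT18, so its mean at ZT2 exceeded those of the other 4 times by far. For 19 of the 23 heat shock genes the highest of the 5 means was at ZT2, and for 18 the lowest was at ZT10. Over all 11790 genes the highest mean was at ZT2 in 2553 (21.7%) and the lowest was at ZT10 in 2158. Sik1 had means of 22.1 FPKM at ZT2 and 6.56, 6.67, 6.17 and 6.95 FPKM at ZT6, ZT10, ZT14 and ZT18. Of the 15 reticulum chaperones 11, and of the 20 immediate early genes 14, were highest at ZT2. Angptl4 peaked between the 2 times compared, with means of 6.24 at ZT2, 61.8 at ZT6, 25.9 at ZT10, 39.9 at ZT14 and 5.96 FPKM at ZT18, and Hes1 likewise was highest at ZT6 with 49.3 FPKM. Of the 24 matrix genes 19 and of the 20 interferon genes 18 had their highest mean at ZT6, as had 2988 of all 11790 genes. Arntl stayed between 25.9 and 29.0 FPKM at all 5 times. Nr1d1 averaged 215 at ZT2, 295 at ZT6, 268 at ZT10, 205 at ZT14 and 195 FPKM at ZT18, and Dbp 95.9, 128, 140, 116 and 97.2 FPKM at the same times.

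**Figure D5:**
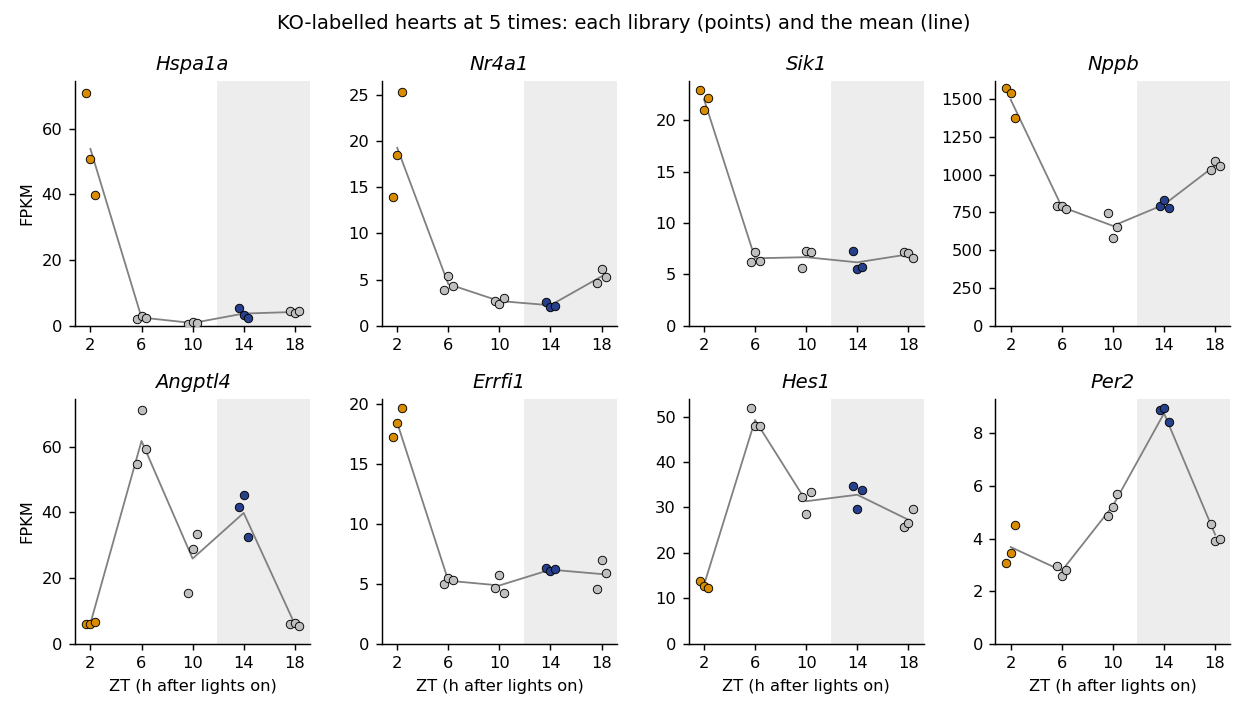
Mean FPKM of 8 genes in KO hearts at ZT2, ZT6, ZT10, ZT14 and ZT18, with points for libraries and shading for the dark phase. Hspa1a is highest at ZT2 with 53.8 FPKM, Angptl4 and Hes1 are highest at ZT6, and Nppb, Nr4a1 and Sik1 are higher at ZT2 than at ZT14.

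Markers of other cell types gave the following values. Summed endothelial markers were lower at ZT2, at 919 to 993 FPKM against 1018 to 1045 FPKM at ZT14. Most of this sum was Fabp4, with 614, 686 and 673 FPKM at ZT2 and 682, 725 and 711 FPKM at ZT14. Fabp4 overlapped between times and did not pass (adjusted p = 0.236), and the median log2 difference of the endothelial markers was -0.04. Of 8 markers Tie1 and Egfl7 fell and Pecam1 rose, against 10.2% of all genes lower and 7.13% higher. Summed macrophage markers overlapped, at 202 to 260 FPKM at ZT2 and 189 to 248 FPKM at ZT14, and the erythroid sums overlapped as well, at 4648 to 5951 FPKM at ZT2 and 3650 to 6121 FPKM at ZT14. Neutrophil markers were low but higher at ZT2, at 2.96 to 10.7 FPKM against 0.56 to 1.43 FPKM at ZT14, led by S100a9 with 1.53, 3.44 and 5.57 FPKM at ZT2 and 0.28, 0.14 and 0.28 FPKM at ZT14 (adjusted p = 0.00889). Their part in the immediate early gene result was not tested. Summed lymphocyte markers were at most 1.04 FPKM at ZT2 and 1.20 FPKM at ZT14.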

How the data were processed

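RNA of flash-frozen whole mouse hearts was extracted with Trizol and sequenced from TruSeq libraries, per the labels' protocols. Per the submitters' processing notes, reads were placed on mm10. Aligner, counter and annotation: not given in the sources used here. The authors deposited 1 table per library, with 18762 gene IDs, of which 18623 matched a symbol. The 33 tables deposited with normalized values were taken as FPKM, a unit inferred from the values, since low values rise in steps set by the gene and by the library. Between 58.9% and 72.6% of the values of the 742 to 842 genes used for these steps lay within 0.15 of a whole read, and the steps gave depths of 15.04 to 17.27 M reads for KO libraries and 13.67 to 15.65 M reads for WT libraries. That depth limits the precision of genes near 1 FPKM. The 3 tables recorded for KO ZT22 hold deposited expected counts whose headers name KO ZT10 libraries, so they served only for gene lengths and depth, and KO ZT22 is not analysed here. In 1 table a further column repeats another library and was not used, and replicate numbers of WT ZT14 follow the record where the headers differ. No 2 of the 33 libraries were identical.

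Values were tested as log2(FPKM + 1), computed from the deposited FPKM, with limma 3.58.1 in R 4.3.3. The 11 group means were fitted with a mean-variance trend and 22 residual degrees of freedom. Genes needed at least 1 FPKM in at least 3 libraries, p-values were adjusted by Benjamini-Hochberg over the 11790 genes left, and the contrasts were ZT2 minus ZT14 in each genotype and their difference. All 33 libraries share 1 estimate of the spread. The fit was tested on simulated data. Alternatives were a pseudocount of 0.1, no filter, a mean of at least 5 FPKM, median-ratio scaling, quantile normalization, the replicate number as a block, the 6 KO libraries alone, each library left out, and edgeR 4.0.16 on counts rebuilt from FPKM, length and depth.

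The members, gene lists and alternatives were chosen with earlier results of these data known. Genes named were, among those called at 2 FPKM or more on average and without overlap, the 14 largest increases and 14 largest decreases, the 10 with the smallest p in the genotype difference, all clock genes, the 4 members with the smallest p of every other list, and Thra. A few further list members, such as Herpud1, Zfp36, Fos, Nr4a3, Hspa8, Hsp90aa1, Hspe1, Fbxo32, Prdx1, Ddit4, Kcna5 and Gja1, and the cell type markers with values, were chosen after their values were seen. Promoter sequences and motif matches are from RefSeq, GRCm38.p6.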

Additional observations from a re-analysis of the deposited data

Results flagged for a closer look

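The ZT2 against ZT14 contrast differed between KO-labelled and WT hearts for 26 of the genes named by the rule given above. The limma test was of the difference itself, which is given here as KO minus WT on the log2(FPKM + 1) scale. Among the clock genes it was positive for Dbp (2.86), Tef (0.83), Bhlhe41 (0.73), Per3 (0.70), Nr1d2 (0.62) and Hlf (0.51), and negative for Arntl (-2.68), Nfil3 (-1.63), Npas2 (-0.93), Clock (-0.59) and Cry1 (-0.36). Nr1d2 overlapped between times in KO-labelled hearts and was lower at ZT2 in WT hearts.

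Outside the clock it was positive for LOC100044627 (2.68), the titin cap gene Tcap (1.34), the phosphatase gene Ptp4a1 (0.70), the potassium channel gene Kcnh2 (0.35), the fatty acid binding gene Fabp3 (0.33) and Mpc1 (0.24), which encodes part of the mitochondrial pyruvate carrier. It was negative for Slc41a3 (-2.61), Hrh3 (-1.01), Lingo3 (-0.99), Irs2 (-0.84), Clasp1 (-0.71), Ppp1r15a (-0.67), a phosphatase subunit of the stress response, Rcan1 (-0.55), Myh6 (-0.54) and Akap1 (-0.36), an anchor of protein kinase A at mitochondria. LOC100044627 differed because 3 KO-labelled libraries and 1 WT library of ZT14 were low while the other WT libraries of ZT14 were not. Ddit4 and Herpud1, named outside the rule, also had a called difference, of -1.29 and 0.39 (adjusted p = 0.00504 and 0.0233 from limma). Ddit4 differed by time by 0.63 in KO-labelled and 1.92 in WT hearts, and Herpud1 by -0.26 and -0.65.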

How the results depend on the processing

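The KO contrast had 2049 genes called, and 1390 to 2205 when a setting other than the set of libraries per group was changed, with the lowest count in a fit to the 6 KO libraries alone and the highest with edgeR on rebuilt counts. Leaving out 1 library gave 1271 to 1773, with 1271 without KO ZT2 replicate 2. The WT contrast had 2305, against 1742 to 2348 over the settings and 1711 to 2430 with a library left out. The difference between genotypes had 152, against 103 to 159 over the settings and 66 to 205 with a library left out. It was 66 without KO ZT2 replicate 2, 84 without KO ZT2 replicate 3, 100 without KO ZT14 replicate 2 and 101 without WT ZT14 replicate 1, and the cause was not tested.

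Of 126 genes named by the rule and called in the KO contrast, 91 were called in each other setting that tested them. With each library left out 95 were called. Of 26 genes named by the rule with a called difference between genotypes, 17 were called in each setting that tested them. Not called without at least 1 library were 7 of the 26 (LOC100044627, Cry1, Hlf, Fabp3, Mpc1, Rcan1 and Kcnh2). The difference for LOC100044627 had an adjusted p of 0.0557 to 0.0849 without any one of 5 libraries. The difference for Hrh3 reversed with edgeR, at 2.08 with an adjusted p of 0.688 against -1.01 before. This gene is at or near 0 in WT hearts. The median over all genes moved by less than 0.1 in each setting.

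The replicate numbers did not pair the KO libraries, since deviations of same-numbered libraries correlated at -0.14, -0.003157 and -0.15 and no ZT2 library correlated best with its own number. With the replicate number as a block the counts were 2006, 2274 and 139. Depth limits genes near 1 FPKM.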
